A study of Mus musculus with 79 samples.

Results

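The antioxidant enzyme genes described here are 10 genes whose proteins remove superoxide, hydrogen peroxide or haem, or keep the peroxide-removing enzymes in working order: *Sod1*, *Sod2*, *Sod3*, *Cat*, *Gpx1*, *Gpx3*, *Prdx2*, *Prdx3*, *Txnrd1* and *Hmox1*. They were picked by gene symbol and not by a cut on measured values, though with earlier results of these data known. All 10 were found among the 22335 gene symbols of the array. They had 11 of its 35556 probesets, the groups of short probes that together read one transcript. *Prdx2* had 2 probesets, and each gene was represented by its probeset with the highest mean. All 10 had a mean above the median of all probesets, which is 7.855. RNA was taken from the quadriceps, a thigh muscle, of male mice of the BXD family, the recombinant inbred strains bred from C57BL/6J and DBA/2J, and of both parental strains. Mice ate chow (CD) throughout or a high fat diet (HFD) from 8 weeks of age, and all were fasted overnight and perfused before tissue was taken at 29 weeks. Each of the 79 arrays held RNA pooled from about 5 males of 1 strain on 1 diet, with 42 strains on CD and 37 of these also on HFD, so p-values measure the spread between pools and say nothing of animals within a strain.

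Respiring muscle makes superoxide, mainly at the mitochondrial respiratory chain and at NADPH oxidases. Superoxide dismutases turn it into hydrogen peroxide, with *Sod1* coding for the copper and zinc enzyme of the cytosol, *Sod2* for the manganese enzyme of the mitochondrial matrix and *Sod3* for the secreted enzyme that sits in the extracellular matrix. Hydrogen peroxide is then removed by catalase (*Cat*), which lies mostly in peroxisomes, by glutathione peroxidases (*Gpx1* inside cells, *Gpx3* in the extracellular fluid) and by peroxiredoxins (*Prdx2* in the cytosol, *Prdx3* in mitochondria). *Txnrd1*, the cytosolic thioredoxin reductase, feeds electrons to the peroxiredoxins through thioredoxin, and *Hmox1*, the inducible haem oxygenase, opens the haem ring to biliverdin, carbon monoxide and iron. Several of these genes are known targets of the transcription factor Nrf2, which binds the antioxidant response element.

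The promoter sequences of the members are shown for that element, since it is the best known control these enzymes share. In RefSeq promoter windows of build GRCm38.p6, each of 250 bases before and 50 after a start of transcription, 8 of the 10 genes, all but *Sod3* and *Hmox1*, had 10 windows between them. The core of the element, TGACNNNGC searched on both strands, was in 2 of these 10 windows and in 12.4% of all 32851 windows. The GC box GGGCGG, searched likewise, was in 8 of the 10 windows and in 35.7% of all, and no core match overlapped one. The sequences below run 5′ to 3′ along the gene's strand, with the match in capitals. The capitals mark the core on the opposite strand for *Sod1* and *Txnrd1* and the GC box for *Cat* and *Sod2*.
Sod1, chr16:90220696-90220724, plus strand: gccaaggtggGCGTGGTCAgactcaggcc
Txnrd1, chr10:82859104-82859132, plus strand: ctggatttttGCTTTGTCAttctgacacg
Cat, chr2:103485162-103485187, minus strand: caagggtgggGGGCGGtgctgattgg
Sod2, chr17:13007762-13007787, plus strand: ccccgaggcgGGGCGGggccaaggcc
The match began 56 bases before the start in *Sod1* and 92 bases before one of the starts of *Txnrd1*. A match of letters is no measure of binding, and neither *Sod1* nor *Txnrd1* passed the test between the diets given next.

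*Cat*, *Sod3* and *Sod2* were higher on HFD and *Gpx3* was lower, while the other 6 genes, each on its representative probeset, did not pass the test. Values are given in score units, the log-type scale on which the table was deposited. The difference between diets was fitted over all 79 arrays with limma, with array batch as a term, and was called at a Benjamini-Hochberg adjusted p below 0.05 over all probesets. Over all probesets 38.1% were called, 18.9% as higher on HFD and 19.3% as lower. Among the members 3 of 10 were called higher and 1 of 10 lower, so the share called was near the background. With the other *Prdx2* probeset in place of the representative one, 4 of 10 were called higher. The background was 31.3% among probesets at or above the median mean (17.9% higher, 13.4% lower) and 24.7% in the brightest decile (16% higher, 8.72% lower). The median difference was 0.047 over the 10 members and -0.001 over all probesets.

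**Figure D1:**
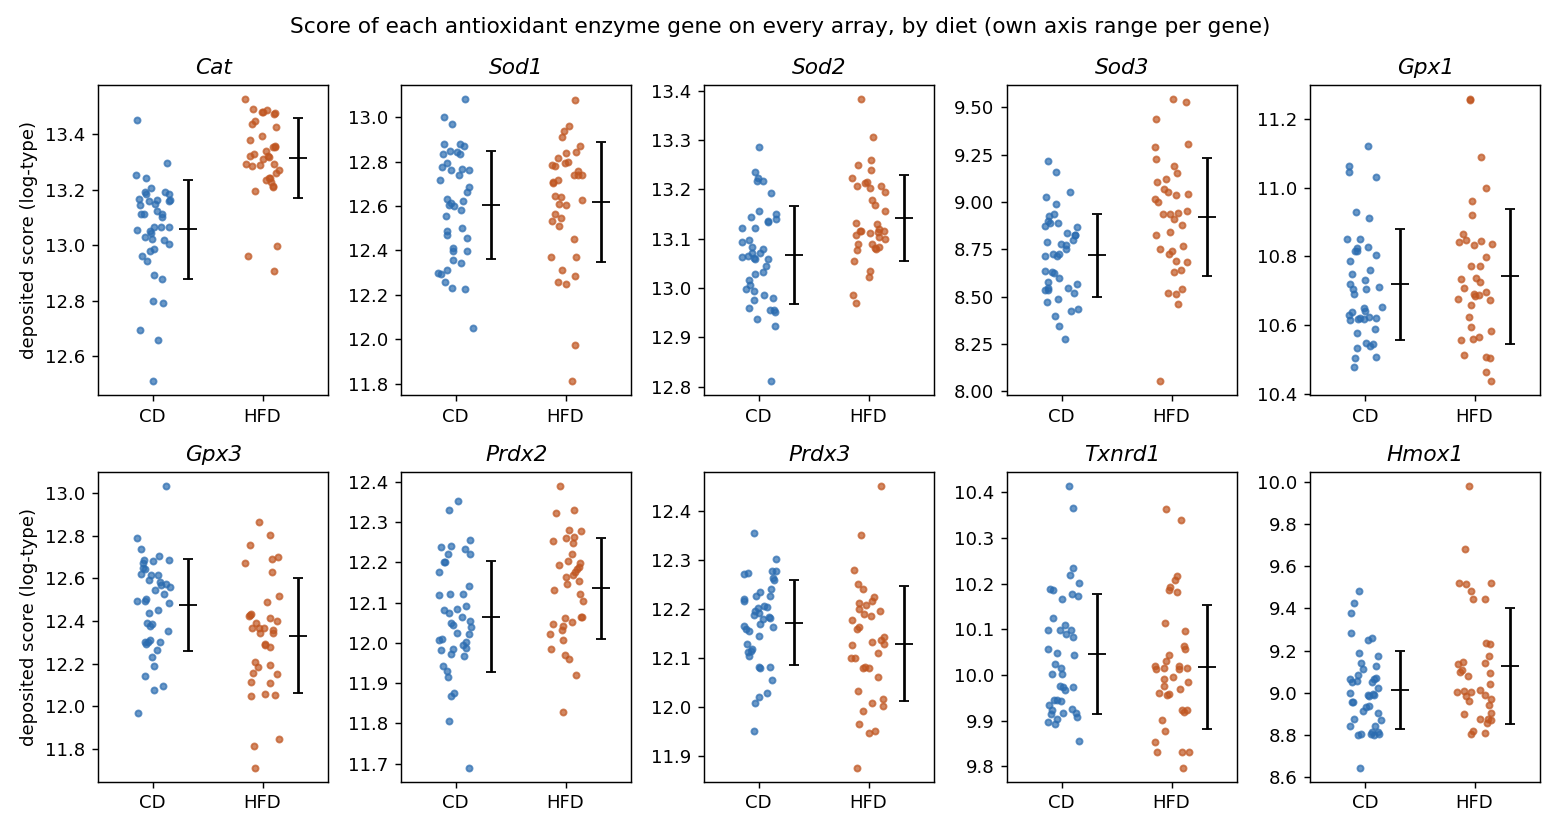
Each point is the score of 1 array (1 pooled strain) for the named gene on CD (42 arrays, blue) or HFD (37 arrays, orange), and the black bar is the group mean with its SD; the vertical axis has its own range in each panel. The *Cat* points sit higher on HFD (mean 13.31) than on CD (mean 13.06), whereas the *Sod1* and *Gpx1* groups cover each other.

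**Figure D2:**
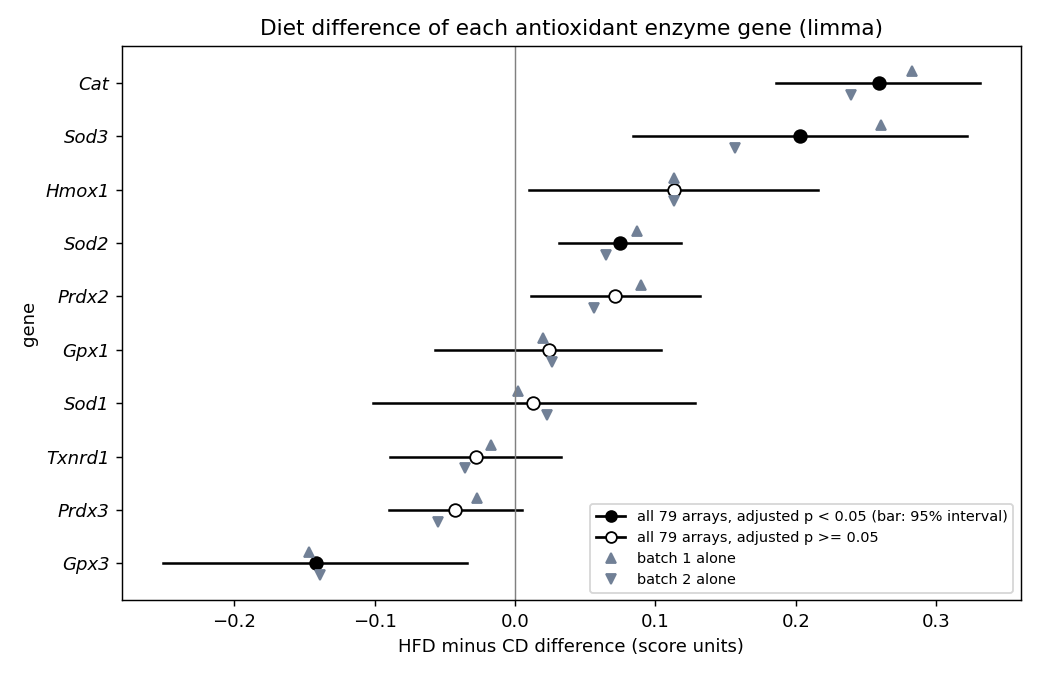
Differences between the diets (HFD minus CD, in score units) from the limma fit, with 95% confidence intervals as bars; filled circles passed the adjusted test and open circles did not, and triangles give the same fit in each array batch alone. The intervals of *Cat*, *Sod3* and *Sod2* lie above 0 and that of *Gpx3* lies below it, and each batch alone gives the same direction for all 10 genes. Those of *Prdx2* and *Hmox1* also lie above 0, though neither gene passed the adjusted test. The intervals are not adjusted for the number of probesets.

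Catalase rose the most of the members. *Cat* scores ran from 12.51 through a median of 13.08 to 13.45 on CD and from 12.91 through 13.32 to 13.53 on HFD. The groups overlapped, but 7 CD arrays lay below every HFD array, 7 HFD arrays lay above every CD array and 34 of 37 HFD arrays exceeded the CD median. The limma difference was 0.259 with an SE of 0.0366 (adjusted p = 1.69e-08), a nominal rise of 1.2-fold if a score unit is taken as a doubling. *Cat* was higher on HFD in 33 of the 37 strains measured on both diets. The rise was 0.78 in BXD68 and 0.73 in C57BL/6J, and the 2 lowest differences were -0.16 in BXD98 and -0.14 in BXD49. C57BL/6J had the lowest CD score of all, 12.51, and reached 13.24 on HFD, near the HFD median. The spread among strains was narrower on HFD (SD 0.14, n = 37) than on CD (SD 0.18, n = 42), a difference that was not tested. *Cat* was called within batch 1 alone and within batch 2 alone and under all 16 alternatives tried, over which its difference ran from 0.231 to 0.283.

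Of the 3 superoxide dismutases *Sod2* and *Sod3* were called higher and *Sod1* was not called, and no contrast between them was tested. The mitochondrial *Sod2* had tight scores, from 12.81 through 13.06 to 13.29 on CD and from 12.97 through 13.12 to 13.38 on HFD. Its limma difference of 0.075 (SE 0.022, adjusted p = 0.00452) is small, a nominal 1.05-fold, but 32 of 37 strains were higher on HFD. The difference was 0.087 in batch 1 alone (adjusted p = 0.162) and 0.065 in batch 2 alone (adjusted p = 0.0528), so neither batch carried the call by itself. It was also lost when the arrays were quantile normalised again (0.053, adjusted p = 0.0663). With strain as a block on the paired strains it was kept (0.084, adjusted p = 0.000161), in a fit that called 40.6% of all probesets.

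The secreted *Sod3* ran from 8.28 through 8.72 to 9.22 on CD and from 8.06 through 8.94 to 9.54 on HFD. The HFD arrays spread further in both directions, with 6 above the highest CD array and BXD61 below the lowest. The limma difference was 0.203 (SE 0.0599, adjusted p = 0.00462), a nominal 1.15-fold, with 29 of 37 strains higher on HFD. Strains disagreed widely, with -0.72 in BXD61 against 0.75 in BXD62 and 0.72 in BXD63. The CD and HFD arrays of BXD62 fell in different batches. Within the batches the difference was 0.261 in batch 1 (adjusted p = 0.0679) and 0.157 in batch 2 (adjusted p = 0.118). With strain as a block it was 0.197 (adjusted p = 0.00209). Markers of fat cells moved with *Sod3*, and with their mean as a further term in the fit the difference was -0.023 (adjusted p = 0.765).

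The cytosolic *Sod1* showed no difference that passed the test. Its scores ran from 12.05 through 12.62 to 13.08 on CD and from 11.81 through 12.71 to 13.08 on HFD, so the groups covered each other. The limma difference was 0.013 with a 95% interval from -0.101 to 0.128 (adjusted p = 0.878), and 20 of 37 strains were higher on HFD. Single strains moved far in both directions, with -1.16 in BXD69, whose HFD array held the lowest *Sod1* score of all, and 0.82 in BXD84. The CD and HFD arrays of BXD69 fell in different batches, as did those of BXD84, so batch and diet cannot be told apart there. Without BXD69 the difference was 0.047 (adjusted p = 0.533).

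The 2 glutathione peroxidases differed from each other in the outcome of the test, though the contrast between them was not tested. The extracellular *Gpx3* fell on HFD. Its scores ran from 11.97 through 12.5 to 13.03 on CD and from 11.71 through 12.36 to 12.86 on HFD, with broad overlap and 29 of 37 HFD arrays below the CD median. The limma difference was -0.142 (SE 0.0543, adjusted p = 0.0306), a nominal 0.906-fold, and 29 of 37 strains were lower on HFD. Of the 8 strains that were higher on HFD, BXD68 and BXD69 had the highest differences, 0.63 and 0.42, and without BXD68 the drop was larger (-0.163, adjusted p = 0.0116). The difference was -0.147 in batch 1 alone and -0.139 in batch 2 alone, neither called (adjusted p = 0.236 and 0.175). It also missed the threshold when each array was centred on its median (-0.125, adjusted p = 0.0597). With strain as a block it was -0.158 (adjusted p = 0.00109). The intracellular *Gpx1* ran from 10.48 through 10.7 to 11.12 on CD and from 10.44 through 10.71 to 11.26 on HFD. Its difference was 0.024 with a 95% interval from -0.057 to 0.104 (limma adjusted p = 0.682), and 21 of 37 strains were higher on HFD.

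The peroxiredoxins and their reductase lay close to the threshold or clearly short of it. The representative probeset of *Prdx2* (10356999) ran from 11.69 through 12.05 to 12.35 on CD and from 11.83 through 12.15 to 12.39 on HFD. Its difference was 0.071 (SE 0.0303, limma adjusted p = 0.0536), with 25 of 37 strains higher on HFD. It was called with strain as a block (0.074, adjusted p = 0.0121), a fit that called 40.6% of all probesets, and without BXD63, whose arrays stood apart in earlier results of these data (0.074, adjusted p = 0.0485), BXD68 (0.079, adjusted p = 0.0338) or BXD69 (0.076, adjusted p = 0.0371). The other *Prdx2* probeset (10573483) ran from 9.8 through 10.05 to 10.49 on CD and from 9.99 through 10.15 to 10.38 on HFD, and 12 CD arrays lay below every HFD array. It was called, with a difference of 0.103 (SE 0.0306, adjusted p = 0.00493) and 30 of 37 strains higher. Which probeset reads *Prdx2* is uncertain. RefSeq places the gene on chromosome 8, and all 10 named probesets nearest in number to 10573483 belong to genes there, whereas all 10 nearest to 10356999 belong to genes on chromosome 1. For the other 9 members, between 7 and 10 of the 10 nearest-numbered probesets lay on the gene's own chromosome.

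The mitochondrial *Prdx3* had a narrow range, from 11.95 through 12.18 to 12.36 on CD and from 11.88 through 12.13 to 12.45 on HFD. Its difference was -0.043 with a 95% interval from -0.09 to 0.005 (limma adjusted p = 0.154), and 26 of 37 strains were lower on HFD. Here too BXD69 went against the majority, with a rise of 0.45, and without it *Prdx3* was called lower (-0.056, adjusted p = 0.0423). *Txnrd1* ran from 9.86 through 10.02 to 10.41 on CD and from 9.8 through 10.01 to 10.36 on HFD. Its difference was -0.028 with a 95% interval from -0.089 to 0.033 (limma adjusted p = 0.504), and 22 of 37 strains were lower on HFD.

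*Hmox1* ran from 8.65 through 8.99 to 9.48 on CD and from 8.8 through 9.04 to 9.98 on HFD. The medians were close, and 5 HFD arrays lay above every CD array. The limma difference was 0.113 (SE 0.0519, adjusted p = 0.0759), and 23 of 37 strains were higher on HFD. The largest rises were 0.88 in BXD68, whose CD array was the lowest of all for *Hmox1*, and 0.7 in BXD79, whose HFD array was the highest. Without BXD68 the difference was 0.093 (adjusted p = 0.148). Centring each array on its median gave 0.13 and a call (adjusted p = 0.0487). With the mean of the adipocyte markers as a further term it was 0.032 (adjusted p = 0.722), and with that of the macrophage markers 0.021 (adjusted p = 0.804).

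The members did not move as one block within a strain. In BXD97, 9 of the 10 genes were higher on HFD, while in BXD49 only 1 was, and in 23 of the strains 5 to 7 were higher. BXD68 held 5 of the lowest or highest differences of the 10 genes and BXD69 held 3. BXD68 combined high rises in *Cat*, *Hmox1* and *Gpx3* with the lowest differences of *Sod2* (-0.13) and *Prdx2* (-0.22). BXD69 combined the large *Sod1* drop with rises in *Hmox1* (0.64), *Prdx3* (0.45) and *Gpx1* (0.41). Each strain has 1 array per diet, so the error of a single strain's difference is not known. These differences were taken without a batch term. In 8 of the 37 strains, BXD62, BXD69 and BXD84 among them, the CD and HFD arrays fell in different batches. There, batch and diet cannot be told apart.

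**Figure D3:**
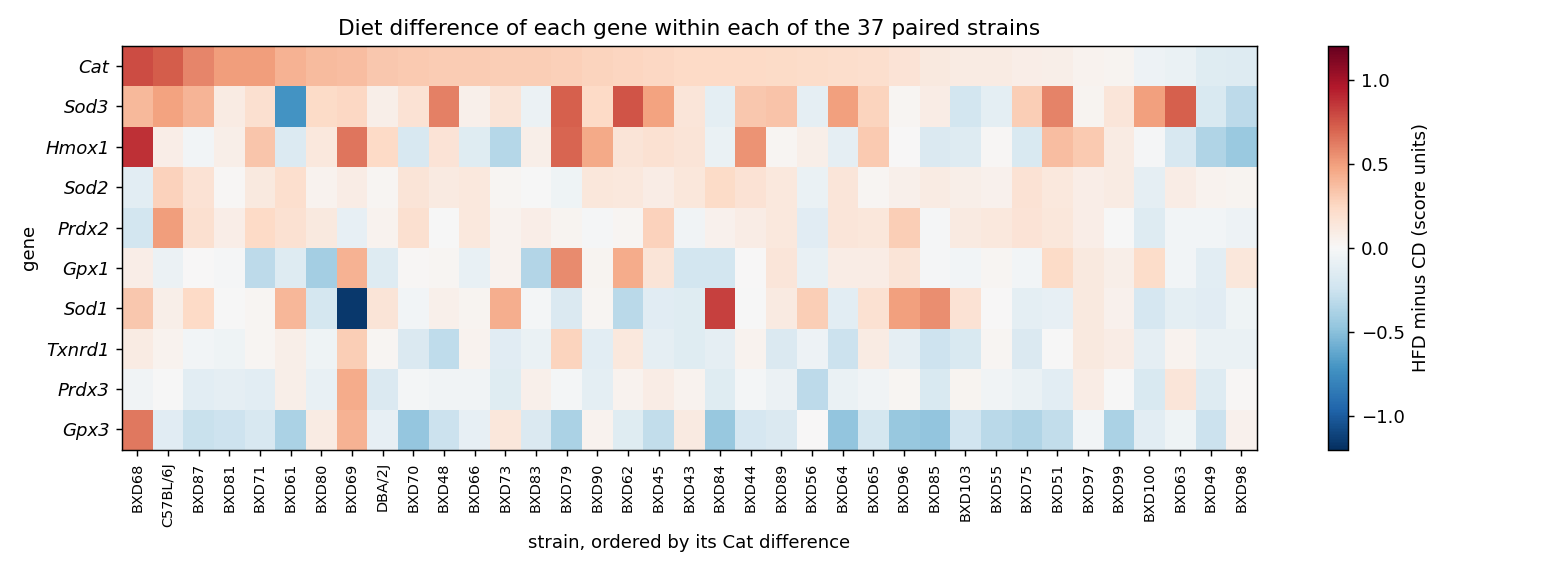
Difference between diets (HFD minus CD, colour scale in score units, red for higher on HFD) for each gene (rows) in each of the 37 strains with both diets (columns, ordered by the *Cat* difference). The *Cat* row is red in 33 strains and the *Gpx3* row blue in 29, and BXD69 stands out for its *Sod1* difference of -1.16. The CD and HFD arrays of BXD69 fell in different batches.

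For every member the range over strains was wider than the difference between the diet means. On CD the highest strain exceeded the lowest by a nominal 1.32-fold for *Prdx3*, 1.39-fold for *Sod2*, 1.92-fold for *Cat* and *Sod3*, 2.05-fold for *Sod1* and 2.09-fold for *Gpx3*. On HFD it ran from 1.33-fold for *Sod2* to 2.8-fold for *Sod3*. Ranges rest on the 2 outermost arrays, hold the error of single arrays as well, and carry no test. Set beside a difference of means, they do not weigh strain against diet. After diet and batch means were removed, the SD over arrays was 0.0923 for *Sod2* and 0.101 for *Prdx3*, at the 2.37 and 4.47 percentile of all probesets. It was 0.264 for *Sod3* and 0.256 for *Sod1*, at the 80.0 and 79 percentile. The members of the mitochondrial matrix were the steadiest, and the secreted and cytosolic dismutases the most variable of the 10.

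Whether a strain kept its rank between diets was asked by correlating CD with HFD scores over the 37 strains after batch means were removed. The threshold was passed by 4 of the 10 members, against 10.5% of all probesets and 18.1% of those at or above the median mean. The Pearson r was 0.551 for *Sod2* (permutation p = 0.00054, adjusted p = 0.00726 over all probesets), with a Spearman rho of 0.526 (permutation p = 0.00125). For *Txnrd1* r was 0.521 (permutation p = 0.00095, adjusted p = 0.0141) and rho 0.503 (permutation p = 0.00182). For *Gpx3* r was 0.518 (permutation p = 0.001, adjusted p = 0.015) and rho 0.523 (permutation p = 0.00101). For *Prdx2* r was 0.5 (permutation p = 0.00176, adjusted p = 0.0212) and rho 0.499 (permutation p = 0.00192), and its other probeset gave 0.447 (adjusted p = 0.0515). When the 2 strains with the most extreme CD scores were dropped, r was 0.405 for *Sod2*, 0.326 for *Txnrd1*, 0.562 for *Gpx3* and 0.577 for *Prdx2*. All 4 stayed positive in strains with both arrays in batch 1 (0.762, 0.827, 0.646 and 0.287 in the same order) and with both in batch 2 (0.317, 0.458, 0.497 and 0.525).

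The highest strain for *Txnrd1* was BXD81 on both diets, at 10.41 and 10.36, and for *Sod2* BXD65 was first on CD (13.29) and second on HFD (13.31). *Cat*, the gene with the clearest diet difference, had the lowest Pearson r between diets of the 10, 0.137 (permutation p = 0.415, adjusted p = 0.703) and rho 0.275 (permutation p = 0.101). By rho *Hmox1* was lower (0.213). The *Cat* r was 0.312 in strains of batch 1, -0.138 in strains of batch 2 and 0.725 in the 8 strains split between batches. Without BXD68 it was 0.235 for *Cat* (adjusted p = 0.439), and for *Hmox1* r went from 0.211 to 0.327 (adjusted p = 0.222). The 5 remaining members had r from 0.211 for *Hmox1* to 0.391 for *Gpx1*, none past the adjusted threshold. Leaving out BXD69 raised r from 0.254 to 0.469 for *Sod1* (adjusted p = 0.037) and from 0.3 to 0.513 for *Prdx3* (adjusted p = 0.0175). The median r was 0.14 over all probesets and 0.236 over those at or above the median mean.

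**Figure D4:**
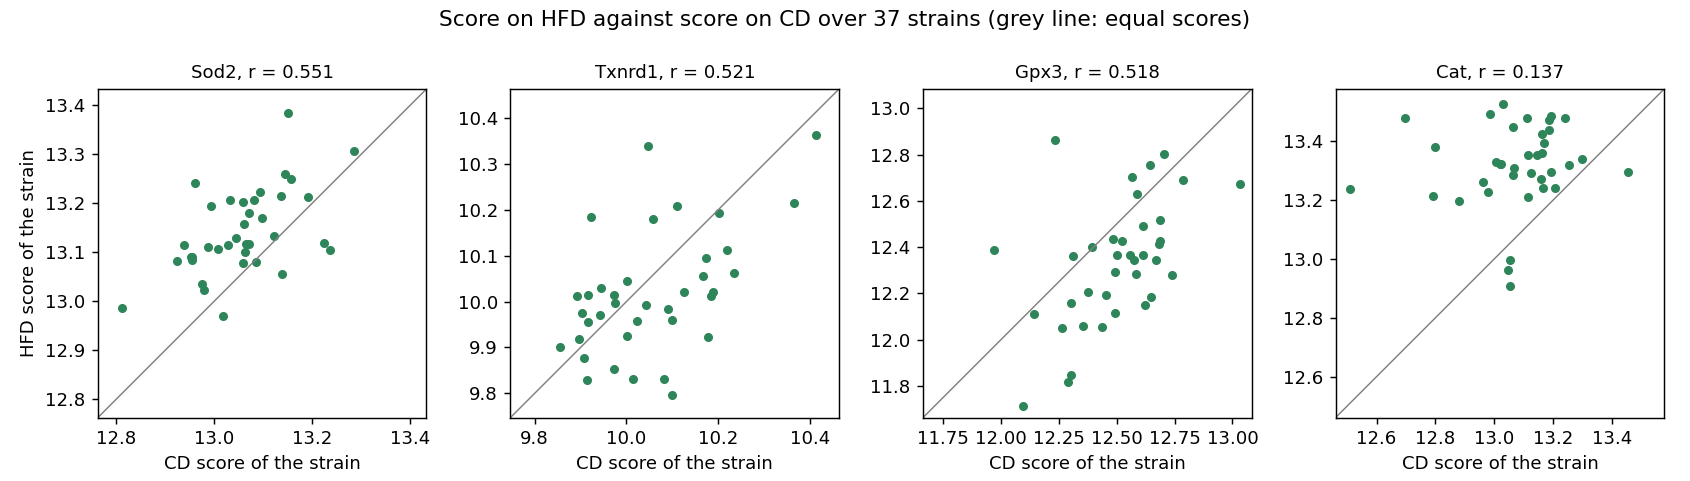
HFD score against CD score of each of the 37 strains (points) for *Sod2*, *Txnrd1*, *Gpx3* and *Cat*, with equal scores on the grey line; scores are plotted as deposited, while r was taken after batch means were removed. *Sod2*, *Txnrd1* and *Gpx3* slope upward with r between 0.518 and 0.551, and the *Cat* points lie mostly above the line with r 0.137.

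Between the parents, no member passed the test in a fit over the 74 arrays of the paired strains with strain, diet and batch as terms, in which 1.26% of all probesets were called and 1 member had an unadjusted p below 0.05. The fit takes the parents to vary like the other strains, since each has 1 array per diet. This was *Prdx2*, with C57BL/6J lower than DBA/2J by a difference of -0.3 (SE 0.102, limma p = 0.0053, adjusted p = 0.19). The C57BL/6J scores were 11.69 on CD and 12.19 on HFD, and those of DBA/2J were 12.22 and 12.26. *Cat* followed with -0.29 (SE 0.149, limma adjusted p = 0.628). The parental *Cat* scores were 12.51 and 13.01 on CD but 13.24 and 13.33 on HFD, and 30 of the 40 BXD strains lay above both parents on CD. For *Gpx3* the parents were close, at 12.5 and 12.53 on CD, while 21 BXD strains lay below both and 19 above both.

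Over strains, pairs of members had r of both signs. Missing a threshold set over all probesets does not show that a pair is unrelated. Of the 45 pairs, correlated over strain means of both diets with diet and batch means removed, none passed the adjusted threshold over all probesets, 10 had a permutation p below 0.05, 25 had r above 0 and the median r was 0.03. The highest was *Sod2* with *Prdx2* (r 0.556, permutation p = 0.00045, adjusted p = 0.262, rho 0.573, permutation p = 0.00028), and *Sod2* with the other *Prdx2* probeset, which is outside the 45, reached 0.693 (permutation p = 1e-05, the smallest that the draws can give, adjusted p = 0.00709). The lowest were *Gpx3* with *Prdx3* (r -0.557, permutation p = 0.00035, adjusted p = 0.0803, rho -0.487, permutation p = 0.00257) and *Sod1* with *Prdx3* (r -0.498, permutation p = 0.0018, adjusted p = 0.0864, rho -0.457, permutation p = 0.00491). *Cat* went with *Hmox1* at r 0.491 (permutation p = 0.00223, adjusted p = 0.157, rho 0.464, permutation p = 0.00407), with r 0.632 and 0.521 in the strains of batch 1 and batch 2.

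The genes with the pattern most like each member were taken by Pearson r over the 79 arrays with diet and batch means removed. Such values share the array and its normalisation, and the genes were ranked by them, so they carry no test. For *Cat* they were *Acss1* (0.703), *Acot2* (0.678) and *Pdk4* (0.665), for *Sod2* *Acot13* (0.779), *Etfb* (0.735) and *Chchd3* (0.705), and for *Sod3* *Prelp* (0.816), *S100a11* (0.784) and *Anxa5* (0.784). *Sod1* went most closely with *Stoml2* (0.811), a probeset named as a repeat (0.797) and *Gm15455* (0.759). *Gpx1* went with *Ctsz* (0.679), *Spg21* (0.657) and *Slc1a5* (0.6), and *Gpx3* with *Pstpip2* (0.605), *Gatad2b* (0.567) and *Vars* (0.555). *Prdx3* went with *Ndufa1* (0.687), *Derl2* (0.683) and *Gm9108* (0.657). The representative *Prdx2* probeset went with *Mb* (0.597), *Ndufv1* (0.578) and *Ndufa10* (0.567), and the other one with *Hccs* (0.656), *Etfa* (0.652) and *Angpt1* (0.646). *Txnrd1* went with *Eid3* (0.636), *Slc7a2* (0.612) and *Nfyb* (0.566), and *Hmox1* with *1110038D17Rik* (0.703) and *Rasa3* (0.696), among others.

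Genes around the members were taken from 8 lists with 84 genes on the array, of which 28 were called higher on HFD and 8 lower, or 42.9% in all beside the 38.1% of all probesets. By direction, 18.9% of all probesets were called higher and 19.3% lower. Among probesets at or above the median mean these shares were 17.9% and 13.4%. They are the background for each list below, and no list was tested as a set. With strain as a block 42 of the 84 were called, 33 of them among the 36 called here, and after quantile normalisation 31, 27 of them among the 36. Among other enzymes that remove superoxide or peroxide, 4 of 11 were called higher and none of the 11 lower by limma or by the methods' t-test, with 0 lower at an unadjusted p below 0.05. The 3 with the highest differences were *Gpx8* (0.162, limma adjusted p = 0.0178), *Gpx7* (0.128, adjusted p = 0.000295) and *Prdx4* (0.105, adjusted p = 0.0188), which code for enzymes of the endoplasmic reticulum. The means of *Gpx7* and *Prdx4* lay below the 7.855 median of all probesets.

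In the thioredoxin and glutaredoxin system 4 of 10 were higher and 1 was lower. The mitochondrial reductase *Txnrd2* rose by 0.141 (limma adjusted p = 9.09e-07, 32 of 37 strains), whereas its cytosolic counterpart *Txnrd1* did not pass, and the contrast between them was not tested. *Glrx2*, a mitochondrial glutaredoxin, was higher by 0.098 and *Txnip*, which binds and inhibits thioredoxin, was lower (-0.129, adjusted p = 0.00108). For glutathione, 2 of 13 were higher and 1 lower. *G6pdx*, the first enzyme of the pentose phosphate pathway and a source of NADPH, rose by 0.384 (adjusted p = 3.46e-07, 33 of 37 strains), *Gstt1* by 0.089 (adjusted p = 0.0496, and 0.0593 with strain as a block), and *Slc7a11*, the cystine importer, fell by 0.238 (adjusted p = 3.95e-05). The *Slc7a11* mean was dim, 6.52 on CD and 6.28 on HFD, below the 7.855 median of all probesets.

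None of the 8 genes of Nrf2 control, *Nfe2l2*, *Keap1* and *Nqo1* among them, was called in either direction by limma or by the methods' t-test, and 1, *Nfe2l1*, was higher at an unadjusted limma p below 0.05. With strain as a block *Nfe2l1* was called (adjusted p = 0.0172), and after quantile normalisation *Keap1* was called lower (-0.07, adjusted p = 0.033). Their differences ran from -0.091 for *Bach1*, a repressor of *Hmox1*, to 0.051 for *Nfe2l1*, a relative of Nrf2. In haem and iron handling 4 of 9 were higher and none of the 9 lower by either test, with 1 lower at an unadjusted limma p below 0.05, the ferritin heavy chain *Fth1* (-0.048), which was called after quantile normalisation (-0.06, adjusted p = 0.0122). *Fth1* and the Nrf2 control genes are named after their values were seen, as are single cell type markers. *Tfrc*, the transferrin receptor, rose by 0.254 (adjusted p = 0.0396, and 0.0581 after quantile normalisation), the ferritin light chain *Ftl1* by 0.156 (adjusted p = 0.000708) and *Blvrb*, a biliverdin reductase, by 0.099 (adjusted p = 0.00343). For the supply of selenoproteins, the class to which *Gpx1*, *Gpx3* and *Txnrd1* belong, 2 of 10 were higher and 2 lower. *Sepsecs* rose by 0.134 and *Pstk* by 0.083 (limma adjusted p = 0.0255, and 0.0865 after quantile normalisation), both enzymes that make selenocysteine on its transfer RNA. *Secisbp2*, which binds the selenocysteine insertion element of the messages, was lower in 35 of 37 strains (-0.186, adjusted p = 3.42e-13), and *Msrb1*, a selenoprotein, was lower (-0.202, adjusted p = 0.00382).

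Of 7 superoxide sources, 3 were higher and 1 lower, beside 18.9% and 19.3% of all probesets. *Cybb* (0.301, limma adjusted p = 0.00038), *Cyba* (0.127, adjusted p = 0.00869) and *Ncf1* (0.12, adjusted p = 0.00302) code for subunits of the phagocyte NADPH oxidase, as does *Ncf4*, the one that fell (-0.093, adjusted p = 0.016, and 0.0513 with strain as a block). The *Ncf4* mean, 7.5 on CD, lay below the 7.855 median of all probesets. Peroxisome making, the list nearest to catalase, had 9 of 16 higher and 3 lower, beside the same shares of all probesets. *Pex11a*, which acts in peroxisome division, rose by 0.468 (adjusted p = 2.22e-11) in 36 of 37 strains, *Pex19* by 0.165 and *Pex5*, the import receptor of matrix enzymes, by 0.153. *Pex14* (-0.123) and *Pex26* (-0.094) were among those that were lower, and the *Pex26* mean, 7.76 on CD, also lay below that median.

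Markers of other cells in the muscle moved with diet too. Their counts stand beside the 18.9% of all probesets called higher and the 19.3% called lower. Adipocyte markers were called higher in 6 of 8 genes, and their mean per array ran from 9.26 through a median of 9.8 to 10.94 on CD and from 9.37 through 10.4 to 11.34 on HFD. *Lep*, the fat cell hormone leptin, rose by 1.582 (limma adjusted p = 5.02e-11) and *Adipoq*, adiponectin, by 0.54 (adjusted p = 0.00143). Macrophage markers were higher in 7 of 9 (list mean 8.32 to 9.14 on CD and 8.52 to 9.41 on HFD), endothelial markers in 3 of 6, fibroblast markers in 1 of 5 and red cell markers in 1 of 6. Muscle fibre markers were the brightest, with list means from 14.35 to 14.67 over both diets, and 1 of 8, *Tnni2*, was lower. In bulk tissue, more or fewer cells of a type and more or less RNA per cell cannot be told apart.

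*Sod3* followed the adipocyte markers closely over strains, with r 0.789 over 37 strain means (permutation p = 1e-05, the smallest that the draws can give, adjusted p = 5.95e-06 over all probesets) and rho 0.813 (permutation p = 1e-05). It was 0.851 in strains of batch 1, 0.793 in strains of batch 2 and 0.834 without the 2 farthest strains. *Sod3* also went with the macrophage mean (r 0.622, permutation p = 5e-05, adjusted p = 0.00374, rho 0.633, permutation p = 5e-05), with r 0.711 and 0.615 in strains of batch 1 and batch 2. Against the fibroblast mean r was 0.598 (permutation p = 0.00012, adjusted p = 0.015, rho 0.625, permutation p = 3e-05), with 0.594 and 0.723 in the batches. Against the muscle fibre mean it was -0.478 (permutation p = 0.00272, adjusted p = 0.0215, rho -0.459, permutation p = 0.00474), with -0.232 and -0.615 in the batches. The *Sod3* difference between diets was 0.052 with the macrophage mean as a further term (adjusted p = 0.503), beside the -0.023 with the adipocyte mean. *Hmox1* went against the muscle fibre mean (r -0.581, permutation p = 0.00017, adjusted p = 0.00373, rho -0.632, permutation p = 3e-05), with -0.458 and -0.642 in the batches.

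Of the 60 relations between the 10 members and 6 marker lists, these 5 passed the adjusted threshold. The share of all probesets that passed against the same marker means is not given, so this count has no background beside it. For *Cat* r was 0.162 with the adipocyte mean (adjusted p = 0.903) and 0.096 with the macrophage mean (adjusted p = 0.813). The *Cat* difference was 0.231 with the adipocyte mean in the fit (adjusted p = 1.27e-05) and 0.255 with the macrophage mean (adjusted p = 6.34e-07). *Sod2* had a difference of 0.061 with the adipocyte mean and lost its call (adjusted p = 0.0604), and *Gpx3* went from -0.142 to -0.09 and lost its call (adjusted p = 0.291), as it did with the macrophage mean (-0.079, adjusted p = 0.329). With the adipocyte term 1 member, *Cat*, was called. With the macrophage term *Cat*, *Sod2* (0.075, adjusted p = 0.0147) and *Prdx2* (0.085, adjusted p = 0.0454) were called higher. The adipocyte mean itself differs between the diets, so the term takes up part of any diet difference. These fits were added after the data had been seen.

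**Figure D5:**
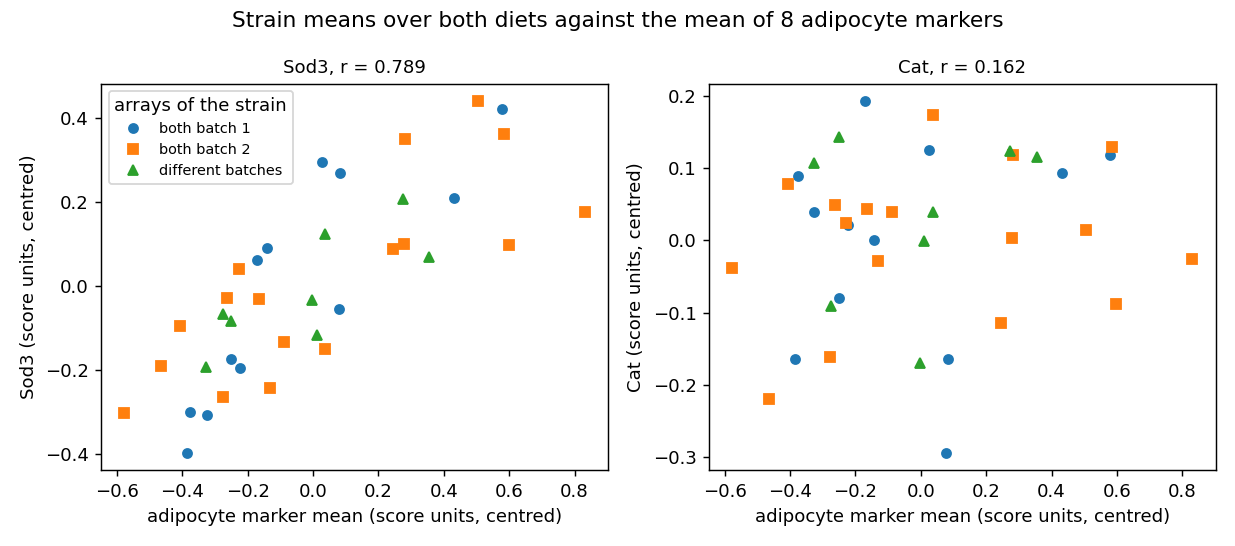
Mean of *Sod3* (left) or *Cat* (right) over both diets in each of 37 strains against the mean of 8 adipocyte markers in the same arrays, both in score units with diet and batch means removed; symbols give the array batches of the strain. The *Sod3* points climb along a line (r 0.789), and the *Cat* points show no such line (r 0.162).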

How the data were processed

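Pooled quadriceps RNA was hybridised to Affymetrix Mouse Gene 1.0 ST arrays, and the submitters' processing notes name Affymetrix Expression Console. The authors deposited 1 score per probeset, with a mean of 8.0 and an SD of 2.0 on every array. The values behave like logs, but base and background method are not given in the sources used here, so folds (2 to the power of a difference) are nominal. Tests planned for log2 values were run on the scores. The number of arrays limits the precision.

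Diet differences were fitted with limma 3.58.1 in R 4.3.3 (lmFit, eBayes) with diet and title batch as terms (18 CD and 17 HFD arrays in batch 1, 24 and 20 in batch 2). Correlations used 100000 permutations, with adjusted p from the t distribution of r over all probesets. Scripts were tested on simulated data. Members and lists were chosen with earlier results of these data known. From each list, at most 3 called genes a direction were named, and for each member the 3 nearest genes; 2 genes that this rule names are not reported here. Alternatives were the batch treatment, strain as a block, subsets of strains, the methods' t-test, a trended variance, other normalisations, a filter on dim probesets and other probesets. The chow column BXD92 was matched to the title BXD92a. The strain name pairs the arrays: deviations from group means correlated at a median r of 0.205 in same-strain pairs (33 of 37 above 0.1) and -0.007 between strains.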

Additional observations from a re-analysis of the deposited data

How the results depend on the processing

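The count of members called higher (3 as reported) was 1 in batch 1 alone, 1 in batch 2 alone, 5 with each array centred on its median and 1 with the adipocyte marker mean as a further term. The count called lower (1 as reported) was 0 under each of these and with the macrophage marker mean, and 2 without BXD69. The share of all probesets called in each of these fits is not given. Whether these counts moved more than that share is therefore not known. With strain as a replicate block on the paired strains, *Prdx2* was called (0.074, adjusted p = 0.0121), and the block changed the call of no other member. Differences between diets reversed for *Sod1* (-0.028) and *Sod3* (-0.023) with the adipocyte mean and for *Gpx1* with the adipocyte mean (-0.074) or the macrophage mean (-0.035), all 4 short of the threshold. The cross-diet r reversed for *Cat* in batch 2 strains (-0.138), and in the 8 strains whose arrays fell in different batches for *Sod1* (-0.328), *Sod3* (-0.1), *Gpx1* (-0.041) and *Prdx3* (-0.208). The cause was not tested. Of all comparisons with an alternative, 136 differences between diets and 62 cross-diet r kept direction and side of the threshold. A further 20 cross-diet values (rho, or r without the 2 most extreme strains) kept direction and were not set against the adjusted threshold. Of the tested ones, 12 and 11 fell short of it and 9 and 2 newly passed it. All 20 strain ranges narrowed when taken from the 10th to the 90th percentile, as they must, so this says nothing of the members. The marker terms and the fits without BXD68 or BXD69 were chosen after seeing the data. With 12 and 17 strains, the within-batch correlations are imprecise.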
